A study of Homo sapiens with 4 samples.

Results

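The genes described here are the SR proteins, the hnRNPs and the CLK kinases, which bind pre-messenger RNA or control the proteins that do. They were taken by name from a deposited gene count table of 58735 genes: 44 protein-coding genes whose symbols begin with SRSF or HNRNP, or are CLK1 to CLK4, TRA2A or TRA2B. These comprised 14 genes of the SR family (the SRSF genes with TRA2A and TRA2B), 26 hnRNP genes and 4 CLK genes. The cells were Hey-A8, a human ovarian cancer line, in 2 groups of 2 libraries of total RNA. The shCON group carried a control short hairpin, and its genotype is labelled Negative Control. The shSPTLC2 group is labelled as a stable knockdown of SPTLC2, the gene for a subunit of the enzyme that starts sphingolipid synthesis. The treatment label differs from this, since it names transient transfection of hairpin plasmids against ZDHHC15. The labels do not say how many hairpins or clones were used or whether replicates were separate cultures, so p-values measure only the spread between these libraries, which may be technical.

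SR proteins bind exonic enhancer sequences through RNA recognition motifs and recruit the spliceosome through a domain rich in arginine and serine, the RS domain. The hnRNPs coat nascent transcripts and often act against SR proteins at nearby splice sites, so the balance of the 2 families shapes which exons are kept. CLK kinases phosphorylate RS domains and release SR proteins from nuclear speckles. Many genes of these families limit their own output by splicing in an exon that carries a premature stop codon and sends the transcript to nonsense-mediated decay.

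Total counts per library ran from 14464784 to 15084966. SPTLC2, the targeted gene, had 871 and 884 counts in shCON and 587 and 662 in shSPTLC2, a log2 fold change of -0.52 ± 0.12 (SE; adjusted p = 0.0063 in edgeR, and 0.13 and 0.052 without shSPTLC2 replicates 1 and 2). The share of counts from mitochondrial genes was 5.46% and 6.39% in shCON and 10.1% and 8.56% in shSPTLC2, and its part in the results below was not tested. Of the carcinoma markers, KRT8, KRT18, KRT7 and PAX8 had at least 4047 counts in every library, whereas CDH1 had 0, MUC16 had at most 1 and EPCAM had 3 to 10. Summed leukocyte markers stayed at or below 0.405 CPM (the share of counts scaled to a common library size), and summed fibroblast markers ran from 1.96 to 2.68 CPM in shCON and from 5.54 to 7.00 in shSPTLC2. Most of the fibroblast sum came from COL1A1, with 23 and 34 counts in shCON and 92 and 76 in shSPTLC2. DCN and LUM had 0 counts in every library. The sum of 4 endothelial markers was 59.9 to 61.4 CPM in shCON and 110.4 to 132.6 in shSPTLC2. Almost all of it came from CDH5, while PECAM1 had 6 to 31 counts.

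Levels of different genes were compared per gene length, on the scale of the deposited FPKM (counts scaled to gene length and to 1 constant per library). HNRNPA1, whose protein silences exons and shuttles to the cytoplasm, was the most abundant member, with 223 and 285 FPKM in shCON and 179 and 189 in shSPTLC2. HNRNPK, whose KH domains bind cytosine-rich RNA, had the next highest mean, with 168.1 and 190.4 FPKM in shCON and 100.0 and 107.7 in shSPTLC2. HNRNPA1 was above HNRNPK in every library. HNRNPAB had 118.7 and 123.9 FPKM in shCON and 105.8 and 92.8 in shSPTLC2. It lay below HNRNPK in both shCON libraries, but the 2 genes overlapped in shSPTLC2, where HNRNPAB was the higher in replicate 1. HNRNPA2B1 (87.1 and 116.7, then 92.2 and 90.1 FPKM) was below HNRNPAB in each of the 4 libraries. The gap was small in replicate 2 of either group. Per base of the longest annotated transcript HNRNPA2B1 had the higher mean (142.4 against 131.7).

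Among SR genes, SRSF2 (66.3 and 63.3 FPKM in shCON, 65.0 and 59.2 in shSPTLC2) and SRSF6 (70.2 and 64.1, then 61.1 and 45.2) overlapped at the top. SRSF11 (33.4 and 40.2, then 49.4 and 45.5) had the next highest mean but overlapped SRSF5 (39.7 and 46.7, then 40.2 and 36.9). SRSF3 (44.6 and 44.1, then 35.6 and 31.1) lay above SRSF11 in both shCON libraries and below it in both shSPTLC2 libraries. Per base of the longest annotated transcript SRSF11 had the higher mean (89.1 against 65.5). It was then above SRSF3 in shCON replicate 2 as well, so this change of order also depends on the length used. The CLK genes lay lower: CLK1 had 13.4 and 15.5 FPKM in shCON and 12.9 and 12.0 in shSPTLC2, CLK2 had 10.5 and 13.3, then 16.3 and 13.4, and CLK3 and CLK4 each stayed between 1.53 and 2.42 FPKM. On this scale CLK1 was above CLK2 in both shCON libraries and below it in both shSPTLC2 libraries. Per base of the longest annotated transcript CLK1 had the higher mean (21.7 against 18.2) and was above CLK2 in shSPTLC2 replicate 2 as well, so the change of order depends on the length used. CLK3 was above CLK4 in each of the 4 libraries. The order depends on the length used, because the length in the table is up to 2.62 times that of a member's longest annotated transcript. Per base of the longest transcript, HNRNPA1 and HNRNPK stayed first and second by mean level, HNRNPM moved from rank 8 to 3, and SRSF11 moved from rank 15 to 8 and became the highest SR gene, while SRSF2 moved from rank 9 to 15. SRSF12 had 2 counts in 1 library, and HNRNPCL1, HNRNPCL2, HNRNPCL3 and HNRNPCL4 had 0 counts in all 4, which allows up to 0.195 to 0.206 CPM in a library (3 counts, counting error only).

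**Figure D1:**
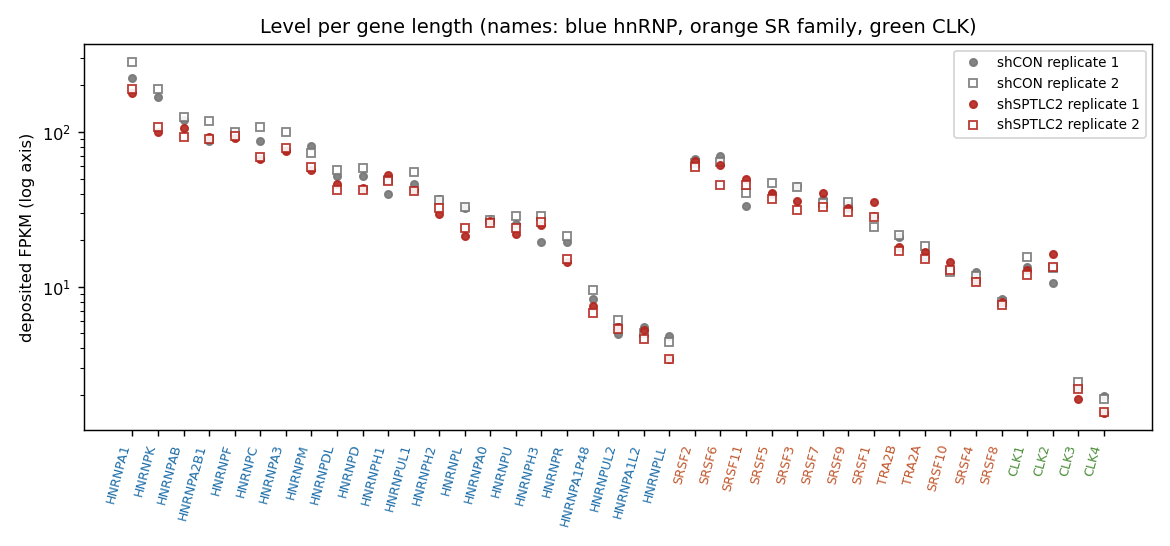
Deposited FPKM (log axis) of each member with a mean above 0.1 FPKM, by family, with 1 point per library (grey shCON, red shSPTLC2; filled replicate 1, open replicate 2). HNRNPA1 is the highest in every library, and of the genes plotted CLK3 and CLK4 are the lowest in every library, between 1.53 and 2.42 FPKM.

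Setting shSPTLC2 against shCON tests the members for a difference between knockdown and control cells. Most hnRNP genes had lower values in shSPTLC2 and 8 of them fell, led by HNRNPK, whereas SR genes went both ways and no CLK gene was called. Of 44 members, 39 passed the filter on low counts and 5 did not. In edgeR's quasi-likelihood test, with p-values adjusted over all 15313 tested genes, 10 of the 39 were called at an adjusted p under 0.05 (25.6%, against 19.4% of all tested genes). Of these, 9 were lower in shSPTLC2 (23.1%, against 9.00%) and 1 was higher (2.56%, against 10.4%). Of the 4335 genes averaging 50 CPM or more, an abundance chosen after the members' values were seen, 15.8% were called lower and 9.78% higher.

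By family, 8 of 22 tested hnRNP genes fell and 0 rose, 1 of 13 SR genes fell and 1 rose, and 0 of 4 CLK genes were called (0 by DESeq2 as well; 1, CLK2, had an unadjusted p under 0.05, at 0.032). The median log2 fold change was -0.27 for hnRNP genes, -0.07 for SR genes and -0.19 for CLK genes. It was 0.005 for all tested genes and -0.07 for the genes averaging 50 CPM or more. No member changed by 2-fold or more: the log2 fold changes ran from -0.78 to 0.38. In 25 members both shSPTLC2 libraries were below both shCON libraries, in 3 both were above, and in 11 the groups overlapped. Over all tested genes the libraries were below in 30.2% and above in 31.3%. Of the 4335 genes averaging 50 CPM or more, they were below in 1818 and above in 1087. In bulk RNA, less transcript in every cell cannot be told apart from a change in some of the cells.

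**Figure D2:**
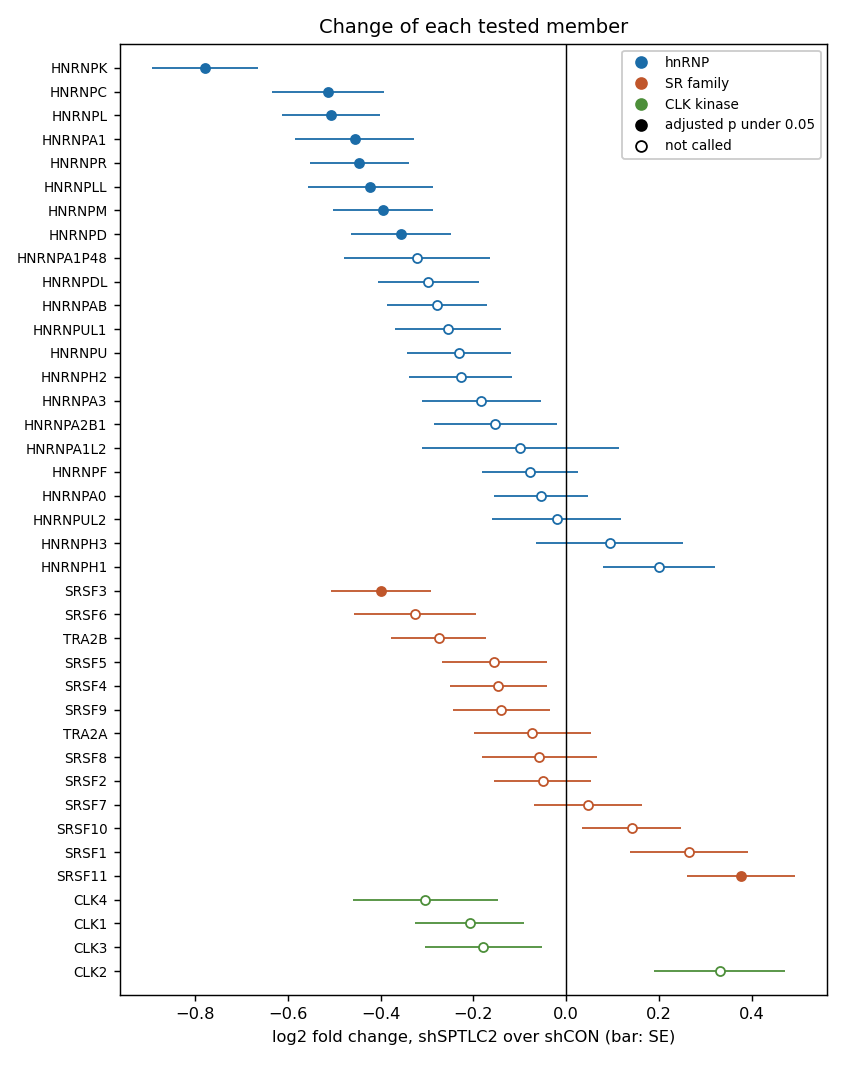
Log2 fold change of shSPTLC2 over shCON for the 39 tested members by family, with the SE as a bar; filled points have an adjusted p under 0.05 over all tested genes. The filled hnRNP points all lie left of 0, from HNRNPK at -0.78 to HNRNPD at -0.36, and the filled SR points are SRSF3 at -0.40 and SRSF11 at 0.38.

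HNRNPK (ENSG00000165119, hg38 chromosome 9, 83968083 to 83980616) had the largest change of any member. Its level was 858 and 981 CPM in shCON and 518 and 555 CPM in shSPTLC2, so both knockdown libraries lay well below both controls. The log2 fold change was -0.78 ± 0.11 (SE; adjusted p = 3.6e-04 in edgeR). HNRNPL (chromosome 19, 38836388 to 38852347), whose protein binds CA-rich RNA, had 218 and 226 CPM in shCON and 147 and 165 CPM in shSPTLC2. The replicates of each group were close, and the log2 fold change was -0.51 ± 0.11 (adjusted p = 0.0039, edgeR). HNRNPLL, its paralog known for regulating exons of the leukocyte gene PTPRC, was far less abundant, at 28.5 and 26.2 CPM in shCON and 20.4 and 20.4 CPM in shSPTLC2. It fell as well, by 0.42 on the log2 scale (SE 0.13, adjusted p = 0.038 in edgeR).

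HNRNPC (chromosome 14, 21209136 to 21269494) binds uridine tracts and keeps cryptic exons out of transcripts. Its level was 635 and 793 CPM in shCON and 491 and 510.0 CPM in shSPTLC2, a log2 fold change of -0.51 ± 0.12 (adjusted p = 0.0084, edgeR). HNRNPA1 (chromosome 12, 54280193 to 54287088) had 1135 and 1461 CPM in shCON and 924 and 968 CPM in shSPTLC2. In both genes shCON replicate 2 was the highest library by a wide margin, yet shCON replicate 1 also stayed above both shSPTLC2 libraries. The log2 fold change of HNRNPA1 was -0.46 ± 0.13 (adjusted p = 0.021, edgeR), and it was -0.27 without shCON replicate 2 (adjusted p = 0.049) and -0.64 without shCON replicate 1.

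HNRNPR, which is known for transport of messenger RNA in neurons, had 168 and 187 CPM in shCON and 128 and 133 CPM in shSPTLC2 (log2 fold change -0.45 ± 0.11, adjusted p = 0.0088 in edgeR). HNRNPM, which binds GU-rich RNA, had 457 and 411 CPM, then 323 and 337 CPM (-0.39 ± 0.11, adjusted p = 0.018). HNRNPD, also called AUF1, binds AU-rich elements and promotes decay of messenger RNA. It had 364 and 410.3 CPM in shCON and 307 and 297 CPM in shSPTLC2 (-0.36 ± 0.11, adjusted p = 0.030). None of these 3 genes had overlapping groups, although for HNRNPM the higher control library was replicate 1 and for the other two it was replicate 2. HNRNPR lies on chromosome 1 from 23303771 to 23344336, HNRNPM on chromosome 19 from 8444767 to 8489114, HNRNPD on chromosome 4 from 82352498 to 82374503 and HNRNPLL on chromosome 2 from 38561978 to 38603586.

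Among the 14 hnRNP genes not called, 12 had a negative and 2 a positive log2 fold change. HNRNPAB had 254 and 268 CPM in shCON and 229.7 and 200.5 CPM in shSPTLC2 (-0.28 ± 0.11, adjusted p = 0.082 in edgeR), and HNRNPDL, the closest relative of HNRNPD, had -0.30 ± 0.11 (adjusted p = 0.066). HNRNPA2B1, the partner of HNRNPA1 in the A/B group, had 806 and 1090.0 CPM in shCON and 864 and 842 CPM in shSPTLC2, so its groups overlapped (-0.15 ± 0.13, adjusted p = 0.45). HNRNPA3 likewise had a low shCON replicate 1 (457.5 CPM against 607.3 in replicate 2), with 456.6 and 481.5 CPM in shSPTLC2. The G-run binders HNRNPH1 (0.20 ± 0.12) and HNRNPH3 (0.09 ± 0.16) were the 2 with positive values, while HNRNPF, of the same group, had -0.08 ± 0.10. HNRNPU, a nuclear scaffold protein, had -0.23 ± 0.11, HNRNPUL1 -0.26 ± 0.11, HNRNPUL2 -0.02 ± 0.14, HNRNPA0 -0.05 ± 0.10 and HNRNPH2 -0.23 ± 0.11. The retrocopies HNRNPA1P48 (-0.32 ± 0.16) and HNRNPA1L2 (-0.10 ± 0.21) resemble HNRNPA1 so closely that reads may be divided between them, and their counts are uncertain.

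The hnRNP genes together took 0.761% (95% exact binomial interval 0.757 to 0.765, counting error only) and 0.885% (0.880 to 0.890) of counts in shCON replicates 1 and 2. In shSPTLC2 they took 0.685% (0.681 to 0.689) and 0.693% (0.689 to 0.698). The 2 control libraries thus differed from each other by more than the 2 knockdown libraries did. Replicate 2 of shCON was above replicate 1 in 17 of 22 hnRNP genes, beside 50.5% of all tested genes. The SR genes together took 0.225% and 0.228% of counts in shCON and 0.238% and 0.210% in shSPTLC2, so their groups overlapped in sum.

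SRSF3 (chromosome 6, 36594353 to 36605600), the smallest SR protein and an adaptor for export of messenger RNA, was the SR gene that fell. Its level was 317 and 316 CPM in shCON and 256 and 223 CPM in shSPTLC2, with controls nearly equal to each other. The log2 fold change was -0.40 ± 0.11 (SE; adjusted p = 0.017 in edgeR). SRSF11 (chromosome 1, 70205682 to 70253052), an SR-like protein also called p54, was the only member called higher with all 4 libraries in the fit. It had 282 and 343 CPM in shCON and 424 and 389 CPM in shSPTLC2, a log2 fold change of 0.38 ± 0.12 (adjusted p = 0.034, edgeR). SRSF11 lost its call after a correction for transcript GC content (0.32, adjusted p = 0.10).

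SRSF6, an SR protein with a long RS domain, had 322 and 296 CPM in shCON and 284 and 209 CPM in shSPTLC2 (-0.33 ± 0.13, adjusted p = 0.095 in edgeR). It was called lower when the replicate number entered the fit as a block (adjusted p = 0.037). SRSF2, a classic enhancer-binding SR protein, had 199.9 and 192 CPM in shCON and 198 and 180.2 CPM in shSPTLC2, and its groups overlapped (-0.05 ± 0.10). TRA2B, whose protein binds GAA-rich enhancers, had -0.28 ± 0.10 (adjusted p = 0.072), against -0.07 ± 0.13 for its paralog TRA2A. SRSF1, the founding member of the family, had a positive value of 0.26 ± 0.13 (adjusted p = 0.16), as did SRSF10 (0.14 ± 0.11) and SRSF7 (0.05 ± 0.12). The others were SRSF5 (-0.16 ± 0.11), SRSF4 (-0.15 ± 0.10), SRSF9 (-0.14 ± 0.11) and SRSF8 (-0.06 ± 0.12). Replicates of shSPTLC2 differed across the family: 0 of 13 SR genes were higher in replicate 2 than in replicate 1, beside 7657 of all 15313 tested genes, with a median log2 difference of -0.14.

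No CLK gene passed the test, and their values did not share a direction. CLK1 had 69.4 and 80.5 CPM in shCON and 67.3 and 62.5 CPM in shSPTLC2 (-0.21 ± 0.12, adjusted p = 0.23 in edgeR). CLK4, its closest paralog, had 15.5 and 14.96 CPM, then 12.3 and 12.4 CPM (-0.30 ± 0.16, adjusted p = 0.19), and CLK3 had 45.0 and 49.8 CPM, then 38.8 and 44.9 CPM (-0.18 ± 0.13, adjusted p = 0.35). CLK2 had 38.6 and 49.1 CPM in shCON and 60.6 and 49.7 CPM in shSPTLC2 (0.33 ± 0.14, adjusted p = 0.11). In each of the 4 genes the groups did not overlap, which also held for 61.5% of all tested genes, and for CLK2 (49.1 and 49.7 CPM) and CLK3 (44.98 and 44.89 CPM) the nearest libraries were almost equal.

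Whether the counting used strand is not given in the sources used here, which matters for several members, CLK2 and CLK3 among them. CLK2 overlaps the channel gene HCN3 on the opposite strand over 909 bases, and HCN3 rose from 53 and 43 counts to 162 and 138 (log2 fold change 1.61 ± 0.23, adjusted p = 3.4e-04 in edgeR). CLK3 overlaps the decapping gene EDC3 over 14857 bases, and EDC3 fell by 0.48 on the log2 scale (adjusted p = 0.015, and 0.11 and 0.16 without shSPTLC2 replicates 1 and 2). Without strand, reads of the shared stretches cannot be assigned to either gene. Such overlaps, with a coding gene on the opposite strand holding at least 5% of the member's counts, touched 8 members and 0 of the 10 called ones. HNRNPUL1 was among them: TGFB1 overlapped it over 6012 bases and held counts equal to 69.4% of those of HNRNPUL1. For HNRNPA2B1 the share held by CBX3 was 25.6%.

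**Figure D3:**
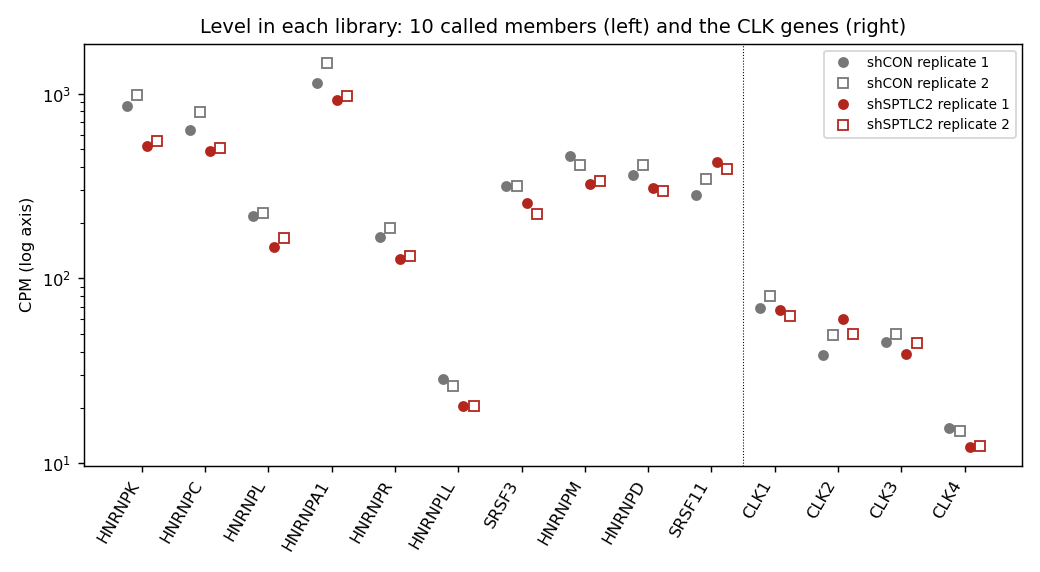
CPM (log axis) in each of the 4 libraries for the 10 called members, ordered by log2 fold change, and for the CLK genes to the right of the dotted line. The red shSPTLC2 points lie below the grey shCON points for the 9 genes that fell, for example at 518 and 555 against 858 and 981 CPM for HNRNPK, and above them for SRSF11.

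With only 2 libraries a group, calls depended on each library. They were fewest without an shSPTLC2 library, where only the shCON pair sets the spread. The log2 fold changes of most called members moved more without an shCON library. For HNRNPC they were -0.67 and -0.35 without shCON replicates 1 and 2, and -0.48 and -0.54 without shSPTLC2 replicates 1 and 2. The reverse held for HNRNPL and SRSF3. HNRNPK was called in all 13 alternative fits, with adjusted p-values up to 0.041. HNRNPL was called in 12 and lost its call without shSPTLC2 replicate 1 (adjusted p = 0.14 in edgeR). Without either shSPTLC2 library the other 8 calls ended: 1 member was called lower without replicate 1 and 2 without replicate 2, and 0 were called higher. Those fits called far fewer genes in all, with 1.41% and 2.49% of tested genes lower and 2.56% and 3.68% higher. Without shCON replicates 1 and 2 the median log2 fold change of the members was -0.28 and -0.11, beside 0.010 and 0.012 for all tested genes. The 10 called members kept their sign in each of the 13 alternatives. HNRNPA1 lost its call after the GC correction (-0.38, adjusted p = 0.061), HNRNPD with library totals as the scale, and HNRNPLL with library totals, in DESeq2 (adjusted p = 0.089) and without shCON replicate 1 (0.075). SRSF11 was not called without shCON replicate 1 (0.097).

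**Figure D4:**
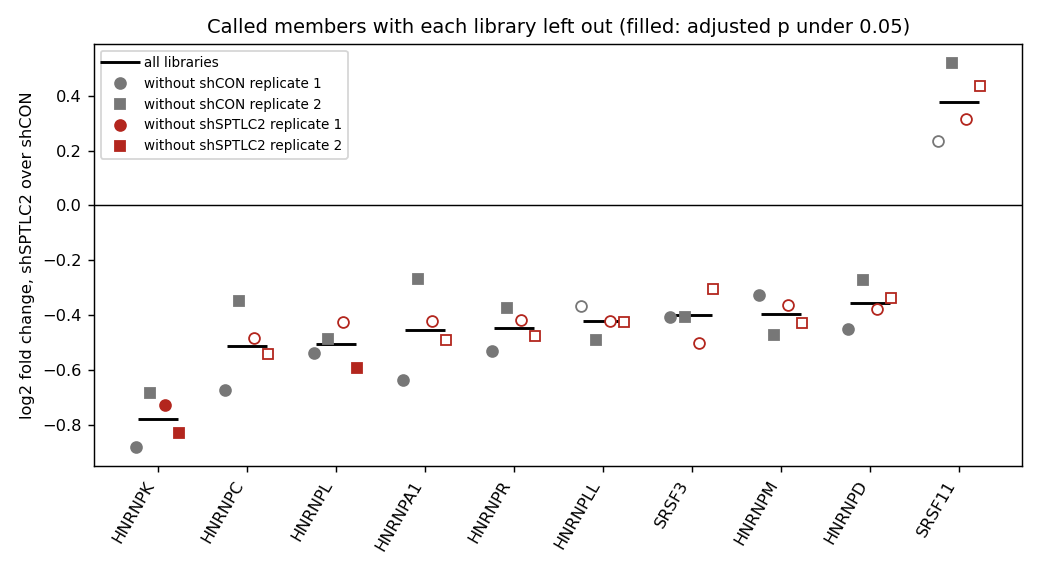
Log2 fold change of the 10 called members with all libraries (black line) and with each library left out (points; filled where the adjusted p is under 0.05). Only HNRNPK is filled in all 4 fits, HNRNPL is filled in 3, and no point crosses 0; HNRNPA1 ranges from -0.64 to -0.27.

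The starts of HNRNPK, HNRNPL and SRSF3, genes that fell and whose RefSeq start lies within 9 bases of the start in the count table, are shown as the 80 bases before the RefSeq start on GRCh38.p14, 5′ to 3′ on the strand of the gene. Capitals mark matches, on either strand, to the GC box GGGCGG, which Sp1 family factors are known to bind, or to the CCAAT box, whose known binder is NF-Y. The E-box searched was CACGTG, and the core letters used for factors of the ETS family were CCGGAA. The windows are chr9:83980616-83980695 on the minus strand, chr19:38852348-38852427 on the minus strand and chr6:36594282-36594361 on the plus strand.
HNRNPK: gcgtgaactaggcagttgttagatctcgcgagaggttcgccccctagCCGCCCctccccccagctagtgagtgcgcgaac
HNRNPL: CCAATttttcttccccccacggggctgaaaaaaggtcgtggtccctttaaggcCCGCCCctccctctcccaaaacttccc
SRSF3: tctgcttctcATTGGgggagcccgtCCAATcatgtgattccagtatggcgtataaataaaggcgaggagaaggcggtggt
The windows of HNRNPK and HNRNPL share a GC box close to the start, while that of SRSF3 holds a pair of CCAAT boxes and no GC box.

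RefSeq promoters were found for 39 of the 44 members, 35 of them tested. In the 250 bases before the start, a GC box was present in 23 of 35 tested members (65.7%, against 67.9% of 9968 tested coding genes with a promoter) and an ETS core in 7 of 35 (against 25.2%). A CCAAT box was present in 16 (45.7%, against 34.8%). An E-box, the palindrome bound by MYC and related factors, was present in 8 (22.9%, against 8.89%). Of the 9 called members with a promoter, HNRNPD and HNRNPM held an E-box, and HNRNPC, HNRNPL, HNRNPLL, HNRNPR and SRSF3 a CCAAT box. The NRF1 palindrome and a YY1-type motif were in 0 of 35, beside 1.96% and 0.582% of coding genes. The motifs do not overlap one another in the printed windows. A match describes letters and not a bound site.

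Several members share a start region with a gene on the opposite strand. By the starts in the count table, a coding gene that was tested began within 1000 bases on the other strand for 10 members. Of these partners 1, HCN3 beside CLK2, was called. The RefSeq starts of CLK2 and SRSF11 lie 4987 and 15698 bases downstream of those in the count table, so the distances to their partners depend on the start used. RMI1, a DNA repair gene that begins 95 bases from HNRNPK, had 362 and 195 counts in shCON and 456 and 393 in shSPTLC2 (log2 fold change 0.58 ± 0.26, adjusted p = 0.18 in edgeR). CBX5, which encodes a heterochromatin protein and begins 60 bases from HNRNPA1, had -0.24 ± 0.10 (adjusted p = 0.12), and LRRC40, 62 bases from SRSF11, had 0.14 ± 0.12 (adjusted p = 0.42).

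Gene counts sum all isoforms, so a shift between a coding transcript and a decay-targeted one is not seen in them. In GENCODE 29, 29 of the 39 tested members (74.4%) have an annotated transcript subject to nonsense-mediated decay, against 42.9% of 12547 tested coding genes. All 13 tested SR genes have one, as do 13 of 22 hnRNP genes and 3 of 4 CLK genes, CLK2 being the exception. A retained-intron transcript is annotated for 27 of 39 members (69.2%, against 57.5%). The transcripts of the tested members have a median GC content of 41.2%, beside 48.0% over all tested genes. With the GC correction 8 of 39 members were called lower and 0 higher, beside 8.49% and 9.62% of all tested genes.

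The machinery that these proteins act on was read from lists of related genes, in the same fit, in which 9.00% of all tested genes were called lower and 10.4% higher. Of 35 core spliceosome genes, 17 fell (48.6%) and 0 rose, with a median log2 fold change of -0.33. Most of the 35 averaged 50 CPM or more, a class in which 15.8% of genes were called lower, with a median of -0.07. U2AF2, the large subunit of the factor that reads the polypyrimidine tract, fell from a mean of 272 to 179 CPM (-0.60 ± 0.11, adjusted p = 0.0017 in edgeR). The Sm core gene SNRPD1 (-0.61 ± 0.12), PRPF19 (-0.45 ± 0.10), a ubiquitin ligase of the spliceosome, and SF3B2 (-0.41 ± 0.10), of the U2 particle, fell too. Only 1 spliceosome gene was called lower without either shSPTLC2 library, and 11 with the GC correction and the replicate block together.

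Several hnRNP proteins carry other symbols. Of 13 such genes tested, 4 fell (30.8%) and 2 rose (15.4%), with a median of -0.14. RBMX, also called hnRNP G, fell from a mean of 264 to 177 CPM (-0.58 ± 0.10, adjusted p = 0.0015 in edgeR), and SYNCRIP, or hnRNP Q, a close relative of HNRNPR, fell by 0.41 on the log2 scale (SE 0.10). PCBP4, a relative of HNRNPK, rose from 17.9 to 30.9 CPM (0.79 ± 0.14). PTBP2 rose from 16.9 to 27.9 CPM (0.72 ± 0.15), while PTBP1, which represses splicing of PTBP2 and was picked after its value was seen, fell from 725 to 559.7 CPM (-0.37 ± 0.11, adjusted p = 0.027). Without shSPTLC2 replicate 1, 1 of these genes was called lower and 0 higher, and without replicate 2, 0 were lower and 2 higher.

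Of 16 genes for nuclear importers and for kinases and phosphatases of SR proteins, 3 rose and 1 fell. The share called was 25.0%, beside 19.4% of all tested genes. The kinase genes DYRK2 (0.46 ± 0.12) and DYRK1B (0.85 ± 0.28) and the importer gene TNPO2 (0.39 ± 0.12) rose, and PPP1R8, a nuclear regulator of protein phosphatase 1, fell by 0.44 on the log2 scale (SE 0.12). The importer genes TNPO3 (-0.30 ± 0.12, adjusted p = 0.082 in edgeR) and TNPO1 (-0.12 ± 0.11), added after their values were seen, were not called. The SRPK genes, the cytoplasmic SR protein kinases, were not called. Without either shSPTLC2 library 0 of the 16 were called.

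Of 27 SR-related and speckle genes tested, 3 rose (11.1%) and 4 fell (14.8%), shares near the 10.4% and 9.00% of all tested genes, with a median of 0.04. RSRP1 rose from a mean of 33.4 to 70.6 CPM (1.08 ± 0.13) and the speckle cyclin gene CCNL2 from 242 to 431 CPM (0.83 ± 0.12). THRAP3 fell from 219 to 111 CPM (-0.97 ± 0.12) and its relative BCLAF1 from 226 to 142 CPM (-0.66 ± 0.10). These 4 genes were called in each of the 13 alternatives. Without shCON replicate 2, 8 genes of the list were called higher, and without shSPTLC2 replicate 1, 2 were called lower.

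Of 21 other splicing regulators tested, 4 rose (19.0%) and 1 fell (4.76%). TIA1, which promotes use of weak splice sites followed by uridine tracts, rose from a mean of 48.8 to 88.9 CPM (0.87 ± 0.11), and MBNL2 (0.54 ± 0.12), RBM24 (0.84 ± 0.22) and RBFOX3 (0.46 ± 0.13) rose too. The paraspeckle gene SFPQ fell from 420.0 to 306 CPM (-0.46 ± 0.11, adjusted p = 0.010 in edgeR). Without either shSPTLC2 library 1 gene of this list was called higher and 0 lower, and the GC correction gave 7 higher. Of 16 factors of nonsense-mediated decay, 6 fell (37.5%) and 1 rose (6.25%), with a median of -0.17. SMG8 (-0.62 ± 0.12), SMG6 (-0.62 ± 0.13) and the exon junction gene MAGOH (-0.65 ± 0.13) fell, and the helicase gene DHX34 rose (0.56 ± 0.12). Without either shSPTLC2 library 1 decay factor was called lower.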

How the data were processed

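Raw gene counts were deposited as whole numbers per library, and a deposited FPKM table gives each count over gene length times 1 constant per library (checked within a relative tolerance of 1e-09). Per the submitters' processing notes, the tools include HISAT2, StringTie and SAMtools, with hg38 as the build. Which program counted the reads, and with which strand setting, is not given in the sources used here. Counts of all 4 libraries were fitted in R 4.3.3 with edgeR 4.0.16: filterByExpr (minimum count 10, minimum total 15), TMM scaling and a robust quasi-likelihood F test, two-sided, with Benjamini-Hochberg adjustment over 15313 genes and a threshold of 0.05. Each SE was derived as the size of the log2 fold change divided by the root of the F statistic, and CPM use TMM-adjusted library sizes. FPKM served only to compare levels between genes. Alternatives were DESeq2 1.42.0, other scalings and filters, a non-robust fit, a GC correction (a loess curve of each library's log2 deviation on the GC content of the longest GENCODE 29 transcript, for 15308 genes), a replicate block and leaving out each library. A fit that leaves 1 library in a group assumes that it varies like the other group. The code was tested on simulated data.

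Every member is named. Values by library are given for called members, for the 3 members of each family with the highest mean FPKM and for all CLK genes, and in each related list up to 4 genes with the smallest p are named, or all called genes where 5 or fewer were called. A few other members' library values were added after they were seen. The members and lists were chosen with earlier results of these data known. In 36.7% (shCON) and 28.4% (shSPTLC2) of tested genes, counts of the replicates gave an unadjusted chi-square p under 0.05. Expected counts came from the library totals without TMM scaling, and the shares include genes that pass by sampling noise alone. Each library was counted separately.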

Additional observations from a re-analysis of the deposited data

How the results depend on the processing

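The limits are the 2 libraries a group and changes that are mostly small: in 13 alternatives, 26 fits of a called member fell short of the threshold, and 17 of a member not called passed it. With each library left out, counts of all genes ran from 413 to 1977 higher and from 227 to 2050 lower. For members they ran from 0 to 4 higher and from 1 to 18 lower, for SR genes from 0 to 1 and from 0 to 4, for hnRNP genes from 0 to 2 and from 1 to 13, and for CLK genes from 0 to 1 in each direction. The GC correction, alone or with the replicate block, left 0 members and 0 SR genes higher. With no low-count filter 2 SR genes were lower, and with the replicate block 2 were (SRSF6 added). Deviations of libraries with the same number had a correlation of -0.013. That gave no sign of pairing by number but cannot exclude a shared culture or day. The block moved no other count of member calls by over 1.5 times.

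None of the sign changes concerned a called member. With the GC correction, alone and with the replicate block, the log2 fold change was 0.055 and 0.053 for SRSF2, 0.032 and 0.032 for SRSF8, 0.024 and 0.024 for HNRNPF, 0.042 and 0.047 for HNRNPUL2, and 0.0034 and 0.0024 for HNRNPA1L2. With library totals, which moved the median of all genes from 0.005 to 0.059, it was 0.0033 for SRSF2, 0.0003 for HNRNPA0 and 0.035 for HNRNPUL2. With each library left out it ran from -0.12 to 0.015 for SRSF2, -0.12 to 0.19 for SRSF7, -0.20 to 0.052 for TRA2A, -0.36 to 0.075 for HNRNPA2B1, -0.38 to 0.030 for HNRNPA3, -0.18 to 0.41 for HNRNPH3 and -0.18 to 0.15 for HNRNPUL2. The cause of these shifts was not tested.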

Other observations

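The table also holds 123 pseudogenes named after hnRNP genes, of which 51 had a count and 14 were tested. HNRNPCP2, a copy of HNRNPC, had 206 and 201 counts in shCON and 115 and 150 in shSPTLC2, and HNRNPKP4, a copy of HNRNPK, had 134 and 147, then 55 and 105. These were the 2 pseudogenes called of the 14 tested, both lower, beside 19.4% of all tested genes called and 9.00% called lower. Their log2 fold changes were -0.65 ± 0.18 and -0.85 ± 0.25 (adjusted p = 0.019 and 0.029 in edgeR). HNRNPA1 has 74 such copies, which together held 181 and 218 counts in shCON and 184 and 218 in shSPTLC2, or 1.20% of the counts of HNRNPA1 itself. Reads of a gene and its copies may be divided between them, so these counts are uncertain.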
